A study of Homo sapiens with 9 samples.

Results

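The genes described here are 56 human genes of interferon signalling and nucleic acid sensing, taken by their symbols from the deposited tables of A375, an established human melanoma cell line. All 56 symbols were listed in the 9 libraries, 53 had a value above 0 in at least 1 group, and 51 of the 13825 genes tested were members. They comprise 6 sensors of foreign or misplaced nucleic acid, 6 receptor chains and kinases, 5 transcription factors, 3 feedback inhibitors, 24 induced effectors, and 12 genes of the ISG15, TRIM, PARP and nuclear body families. The study lowered SPANX, a gene family on the X chromosome whose proteins belong to sperm and reappear in some tumours, and sequenced the 3' ends of polyadenylated RNA (QuantSeq 3' mRNA-Seq) from day 7 after knockdown. Its 3 groups of 3 libraries were EV control, SPANX KD 86 and SPANX KD 87, all in A375 cells. The labels name no other treatment, give the constructs by number alone, do not say how they were delivered or whether the cells were a clone, and do not say whether replicates were separate cultures, so p-values here measure a spread that may be purely technical. The comparisons ask how each member's RNA differed between EV and each construct and between the constructs. Both comparisons with EV share the same 3 EV libraries.

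As background, RNA that reaches the cytoplasm from viruses or from the cell's own repeats is detected by the RIG-I family of helicases, and stray DNA by cGAS, which signals through STING. Adaptors and kinases below these sensors activate IRF3 and IRF7, which switch on interferon genes. Secreted interferon then binds receptors on the same or nearby cells, JAK kinases activate STAT proteins, and STAT2 with IRF9 raises a large set of interferon-induced genes that block viral replication. Tumour cells, melanoma among them, can carry a low tonic level of this programme or have lost parts of it.

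The recovered depth was 11.311 to 15.564 M reads per library, and levels below are normalised reads, meaning reads scaled to a common library of 13.445 M. Of 10 SPANX genes listed, 2 were above 0, SPANXC and SPANXD, so the rest of the family could not be read. These 2 summed to 502.3, 177.2 and 607.9 normalised reads in EV, 102.7, 36.02 and 42.21 with KD 86, and 30.48, 23.98 and 40.72 with KD 87. SPANXC made up most of the sum in every library. All 6 knockdown libraries lay below all EV libraries, by 7.12-fold and 13.5-fold on average (two-sided exact permutation test, p = 0.1 for each, the smallest that 3 against 3 can give; 10.97-fold for KD 86 without its replicate 1). The lineage markers SOX10, S100A1, CSPG4, MCAM and VIM were above 0 in all groups. S100B, MITF and the pigment cell gene PMEL were also above 0, while the pigment cell genes MLANA, TYR and DCT were listed at 0. The KD 87 tables had been filtered separately from the EV and KD 86 tables, so a gene listed at 0 throughout a group had been filtered there and is not shown to be absent. As these are bulk samples, fewer cells making a transcript and less of it per cell cannot be told apart.

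With KD 86, 16 of the 51 tested members rose and 3 fell against EV (limma, adjusted p under 0.05). Those 19 members are 37.25% of the members, beside 35.6% of all genes tested, so the overall share called was near the background. The direction was less even than the background: 31.4% of members were higher and 5.88% lower, beside 18.0% and 17.6% of all genes. The median change of the members was 0.33 on the log2 scale, beside -0.037 for all genes. With KD 87, 3 members rose and 1 fell, 7.84% of the members beside 10.3% of all genes tested (5.91% higher and 4.43% lower), and the median changes were 0.068 and -0.00023. Between the constructs, 3 members were higher and 11 lower with KD 87 than with KD 86, 27.45% of the members beside 25.6% of all genes (12.7% higher, 12.9% lower). Members whose 3 libraries lay wholly above or below the 3 EV libraries numbered 19 and 3 with KD 86, where 45.3% of all genes had such separate groups (22.5% above, 22.8% below). With KD 87 they numbered 13 and 2, beside 29.2% of all genes (15.2% above, 14.0% below). Between the constructs, 7 members lay wholly higher and 20 wholly lower with KD 87, beside 45.3% of all genes (22.9% higher, 22.4% lower). Whether the members' shares differ from the background was not tested, since the members were chosen with results of these data known.

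These counts moved with single libraries and with the replicate number. The KD 86 count of 19 fell to 10 without EV replicate 1 (24.9% of all genes), to 9 without KD 86 replicate 2 (22.1%) and to 11 without KD 86 replicate 3 (29.8%). The KD 87 count of 4 became 8 without EV replicate 2, when 18.5% of all genes passed, and the count of 14 between constructs became 9 without KD 86 replicate 2, when 16.0% of all genes passed. The share of all genes moved the same way as the members' count in each of these cases. With the replicate number as a block, which took up differences shared by libraries of the same number, 28 members passed with KD 86 (23 higher, 5 lower; 55.3% of all genes, 27.0% and 28.3%), 18 with KD 87 (14 higher, 4 lower; 31.0%, 16.1% and 14.8%) and 24 between the constructs (5 higher, 19 lower; 44.1%, 22.2% and 21.9%). No member call was lost with the block. The 28 with KD 86 include IRF9, for which no KD 86 test is given below. DDX58 and IFNGR2 were the 2 members called with both constructs, both higher, where 5.86% of all genes were called the same way with both (4.07% higher, 1.79% lower). With the block, 9 members were called the same way with both constructs, beside 18.7% of all genes, and STAT2 and ISG20 were called in opposite ways, beside 2.59% of all genes.

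**Figure D1:**
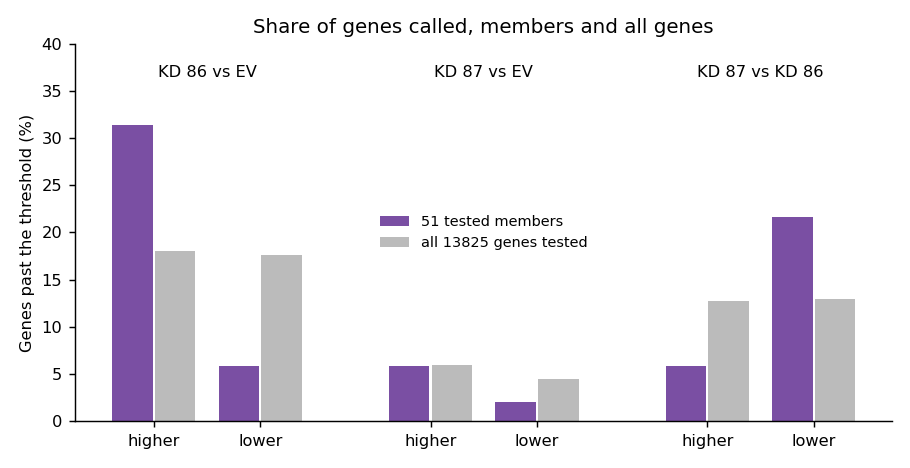
Share of genes past the threshold (percent, limma adjusted p under 0.05) in each comparison and direction, for the 51 tested members (purple) and for all 13825 genes tested (grey); "vs" stands for "against". The largest gap is for higher calls with KD 86, 31.4% of members beside 18.0% of all genes, and lower calls with KD 86 stand at 5.88% beside 17.6%.

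Promoter sequences are shown for 10 members whose values are described below, so that the interferon motifs can be read beside the changes. RefSeq promoters (build GRCh38.p14, 300 bases from 250 before to 50 after each gene's start) were matched for 43 of the 56 members. Capitals mark matches, on either strand, to the core of the interferon-stimulated response element, GAAANNGAAA, or to the gamma-activated sequence, TTCNNNGAA. A core on the opposite strand appears as its reverse complement, and the gamma-activated sequence reads alike on both.
IFIH1, chr2:162318635-162318934, minus strand: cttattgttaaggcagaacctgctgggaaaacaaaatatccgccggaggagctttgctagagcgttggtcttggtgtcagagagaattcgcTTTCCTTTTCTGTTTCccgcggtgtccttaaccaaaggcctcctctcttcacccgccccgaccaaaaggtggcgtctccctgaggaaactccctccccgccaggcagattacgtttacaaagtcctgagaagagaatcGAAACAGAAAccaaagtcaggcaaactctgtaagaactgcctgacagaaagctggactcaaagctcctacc
DDX58, chr9:32526147-32526446, minus strand: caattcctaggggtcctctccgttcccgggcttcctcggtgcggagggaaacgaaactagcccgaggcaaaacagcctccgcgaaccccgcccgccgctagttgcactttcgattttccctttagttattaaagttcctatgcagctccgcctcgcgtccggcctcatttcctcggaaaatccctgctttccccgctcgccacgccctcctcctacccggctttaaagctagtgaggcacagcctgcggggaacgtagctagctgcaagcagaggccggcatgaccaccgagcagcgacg
IFNGR2, chr21:33403163-33403462, plus strand: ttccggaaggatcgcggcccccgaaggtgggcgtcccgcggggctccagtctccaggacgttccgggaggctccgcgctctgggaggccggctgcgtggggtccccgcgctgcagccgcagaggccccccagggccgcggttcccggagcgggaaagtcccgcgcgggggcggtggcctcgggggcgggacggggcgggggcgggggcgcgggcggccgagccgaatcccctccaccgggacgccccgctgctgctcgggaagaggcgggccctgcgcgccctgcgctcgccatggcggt
IRF1, chr5:132490724-132491023, minus strand: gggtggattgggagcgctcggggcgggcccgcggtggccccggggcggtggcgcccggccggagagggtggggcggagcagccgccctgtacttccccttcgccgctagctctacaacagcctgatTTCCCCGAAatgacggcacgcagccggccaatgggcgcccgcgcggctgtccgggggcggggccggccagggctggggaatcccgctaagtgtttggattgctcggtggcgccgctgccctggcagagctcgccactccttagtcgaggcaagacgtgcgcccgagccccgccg
IFIT5, chr10:89414318-89414617, plus strand: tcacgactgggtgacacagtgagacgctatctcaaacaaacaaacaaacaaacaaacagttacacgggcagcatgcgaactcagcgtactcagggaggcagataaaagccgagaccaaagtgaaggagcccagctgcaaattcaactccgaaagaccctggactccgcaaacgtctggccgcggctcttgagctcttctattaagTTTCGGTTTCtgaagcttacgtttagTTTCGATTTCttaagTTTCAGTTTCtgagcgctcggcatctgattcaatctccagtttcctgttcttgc
IFI35, chr17:43006534-43006833, plus strand: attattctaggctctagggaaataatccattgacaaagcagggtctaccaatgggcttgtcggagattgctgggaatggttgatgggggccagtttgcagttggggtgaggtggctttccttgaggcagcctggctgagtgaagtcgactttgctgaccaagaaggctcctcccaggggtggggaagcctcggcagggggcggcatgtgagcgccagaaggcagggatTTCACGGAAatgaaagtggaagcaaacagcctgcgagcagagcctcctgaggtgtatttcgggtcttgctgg
BST2, chr19:17405581-17405880, minus strand: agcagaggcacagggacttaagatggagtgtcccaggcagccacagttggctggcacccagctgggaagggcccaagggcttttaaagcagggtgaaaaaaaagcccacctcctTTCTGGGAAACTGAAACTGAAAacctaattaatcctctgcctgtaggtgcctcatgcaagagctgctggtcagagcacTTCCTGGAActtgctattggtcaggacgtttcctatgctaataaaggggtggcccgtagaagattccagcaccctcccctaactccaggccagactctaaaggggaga
TRIM21, chr11:4393653-4393952, minus strand: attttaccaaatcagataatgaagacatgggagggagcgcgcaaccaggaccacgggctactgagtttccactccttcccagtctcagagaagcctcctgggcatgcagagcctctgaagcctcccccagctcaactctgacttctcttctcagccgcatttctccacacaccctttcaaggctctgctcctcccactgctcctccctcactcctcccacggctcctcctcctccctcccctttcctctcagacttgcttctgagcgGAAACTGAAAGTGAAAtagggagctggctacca
PARP14, chr3:122680589-122680888, plus strand: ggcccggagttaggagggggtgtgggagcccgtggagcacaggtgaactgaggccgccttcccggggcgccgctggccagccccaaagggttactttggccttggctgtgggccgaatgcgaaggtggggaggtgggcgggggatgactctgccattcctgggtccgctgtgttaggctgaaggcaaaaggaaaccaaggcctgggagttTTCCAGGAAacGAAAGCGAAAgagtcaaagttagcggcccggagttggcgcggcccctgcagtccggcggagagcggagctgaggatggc
DTX3L, chr3:122564088-122564387, plus strand: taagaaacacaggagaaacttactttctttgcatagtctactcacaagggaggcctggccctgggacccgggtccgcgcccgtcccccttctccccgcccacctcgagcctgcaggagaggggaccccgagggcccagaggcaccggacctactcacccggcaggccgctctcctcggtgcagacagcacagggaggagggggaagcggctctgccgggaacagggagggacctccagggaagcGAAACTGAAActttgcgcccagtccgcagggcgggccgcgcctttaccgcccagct

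The response element core was present in 20 of the 43 member promoters (46.5%), beside 3.57% of all 35116 promoters of the same length. The gamma-activated sequence was present in 8 (18.6%), beside 7.66%. These matches are letters in a window, not bound sites. IFIH1 has a pair of overlapping cores and a further one near its start. IFIT5 has 3 separate matches close to its start and BST2 has a pair of overlapping cores that meet a gamma-activated sequence, with a second such sequence nearer the start. TRIM21 has 2 overlapping matches just after its start, DTX3L a single match at position -6 from its start, and PARP14 a core at -29 with a gamma-activated sequence at -40. IRF1 at -124 and IFI35 at -22 hold only the gamma-activated sequence, and DDX58 and IFNGR2 hold neither motif in this window. Members with the core went in both directions. The core was present in 7 of the 14 matched members that rose with KD 86 (IFIH1, IFIT3, MX1, GBP1, TRIM21, PARP14 and DTX3L), in both matched members that fell (IFIT5 and IFI44) and in 9 of the 23 with no call. It was present in 0 of the 5 matched receptor and kinase genes.

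Among the sensors, both RNA helicases that signal were higher with KD 86, and DDX58 was higher with both constructs. The calls are 40% of the 5 tested sensors with KD 86 and 20% with KD 87, beside 35.6% and 10.3% of all genes. DDX58 (ENSG00000107201.9), which encodes RIG-I, a sensor of RNA with a triphosphate end, stood at 67.8, 65.8 and 107 normalised reads in EV, 159.8, 248 and 231 with KD 86, and 360.5, 239 and 238 with KD 87. All 6 knockdown libraries lay above all EV libraries. It rose by 1.41 on the log2 scale with KD 86 (SE 0.28, limma adjusted p = 0.00371) and by 1.80 with KD 87 (SE 0.28, adjusted p = 0.00509), or 2.66-fold and 3.47-fold. Both calls held without each library in turn, and the constructs differed by 0.39 (95% interval -0.24 to 1.01, adjusted p = 0.35). IFIH1 (ENSG00000115267.5) encodes MDA5, a sensor of long double-stranded RNA. Its level was 42.2, 85 and 97 normalised reads in EV, 112, 189.7 and 229.8 with KD 86, and 110.3, 119 and 135 with KD 87. Every knockdown library was again above every EV library, and EV replicate 1 was the lowest of the 9. IFIH1 rose with KD 86 by 1.26 (SE 0.35, adjusted p = 0.0191), a call lost without EV replicate 1 (adjusted p = 0.0679), KD 86 replicate 2 (adjusted p = 0.0696) or KD 86 replicate 3 (adjusted p = 0.0684). With KD 87 the difference was 0.77 (adjusted p = 0.187), which passed with the replicate block (adjusted p = 0.0236).

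DHX58 encodes LGP2, a related helicase that lacks a signalling domain and tunes the other helicases. DHX58 (ENSG00000108771.12) stood at 50, 71.2 and 104 normalised reads in EV, 68.8, 83.5 and 89.1 with KD 86, and 116, 117 and 133 with KD 87. The KD 87 libraries were the 3 highest, and the KD 86 range lay within the EV range. Neither difference passed: 0.15 with KD 86 (limma adjusted p = 0.698) and 0.76 with KD 87 (adjusted p = 0.116, 0.025 with the block). The KD 87 level was 0.60 above that of KD 86 (adjusted p = 0.149), which also passed with the block (adjusted p = 0.0463). IFI16 (ENSG00000163565.18), a DNA sensor found largely in the nucleus, stood at 1105, 1388 and 1292 normalised reads in EV, 1414, 1418 and 1495 with KD 86, and 1179, 1287 and 1411 with KD 87. The KD 86 libraries were above the EV ones by a small margin and the KD 87 range overlapped the EV range. Its differences of 0.20 (95% interval -0.17 to 0.57, adjusted p = 0.372) and 0.037 (95% interval -0.33 to 0.41, adjusted p = 0.909) did not pass.

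TMEM173 (ENSG00000184584.12) encodes STING, the adaptor that relays cytosolic DNA signals. It stood at 386, 627 and 602 normalised reads in EV, 622, 950.5 and 851 with KD 86, and 392, 594 and 410.3 with KD 87. All KD 86 libraries lay above all KD 87 libraries, and the EV range overlapped both. The KD 86 difference from EV was 0.60 (limma adjusted p = 0.0989, 0.00737 with the block) and that of KD 87 was -0.20 (adjusted p = 0.652). TMEM173 was lower by 0.80 with KD 87 than with KD 86 (SE 0.26, adjusted p = 0.0462). That call was lost without EV replicate 3, KD 86 replicate 2 or 3, or KD 87 replicate 1 or 3 (adjusted p from 0.0524 to 0.162), on the deposited values as they stand (adjusted p = 0.0502) and without a variance trend (adjusted p = 0.0611). MB21D1, the gene of cGAS, which makes the cyclic dinucleotide that activates STING, was listed at 0 in all 9 libraries.

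**Figure D2:**
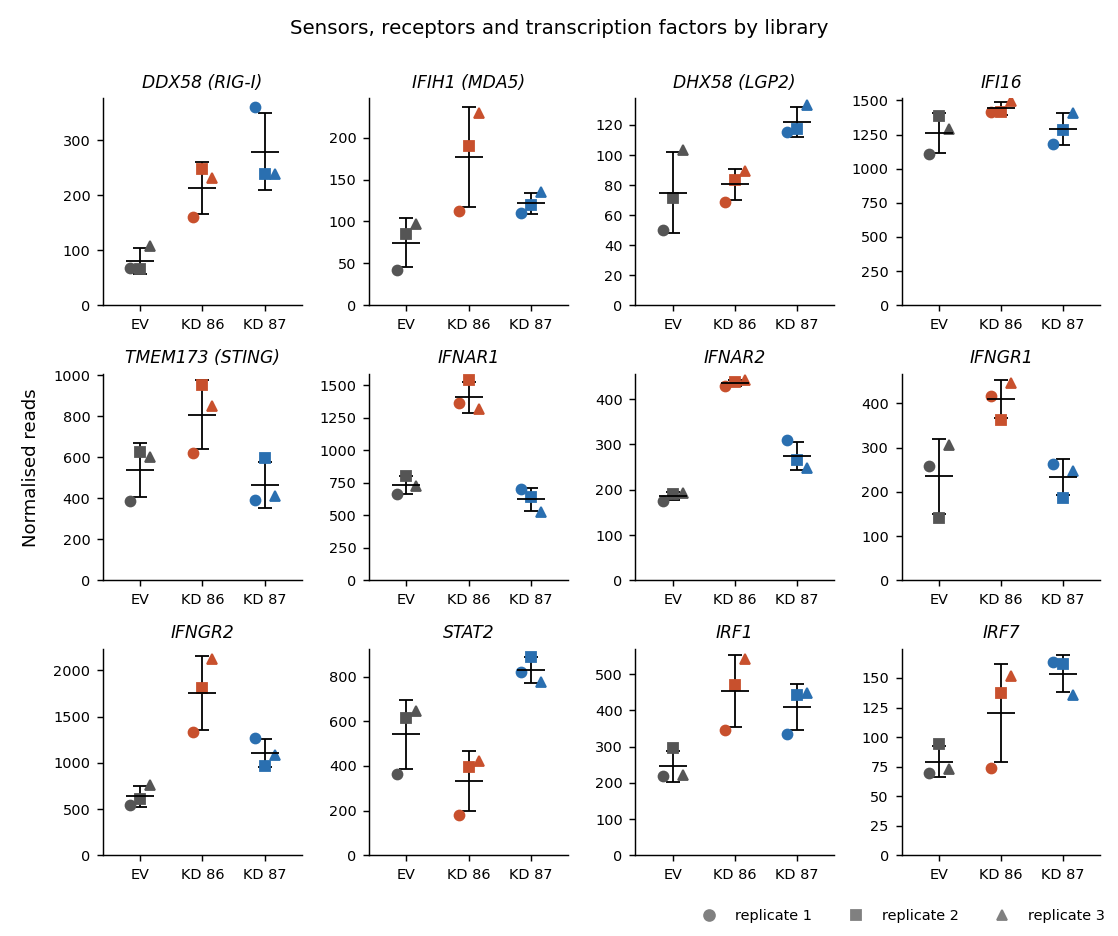
Normalised reads (vertical axis, from 0) in each library for the 5 sensors above 0, the 4 interferon receptor chains, STAT2, IRF1 and IRF7. Points are libraries, shaped by replicate number, and bars are the mean and SD of 3 libraries. DDX58, IFIH1, IFNAR2, IFNGR2 and IRF1 lie above EV in all 6 knockdown libraries, IFNAR1 and IFNGR1 only in the KD 86 libraries, and STAT2 is highest with KD 87.

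All 4 interferon receptor chains rose with KD 86, and of the 6 genes of the receptor and kinase group none fell. These are 66.67% of the group, beside 35.6% of all genes (18.0% higher). The count of 4 was 3 without EV replicate 1 or any 1 KD 86 replicate, when 22.1% to 29.8% of all genes passed. It was 5 with the replicate block, beside 55.3% of all genes. IFNAR1 (ENSG00000142166.12) and IFNAR2 (ENSG00000159110.19) encode the chains that together bind type I interferons. IFNAR1 stood at 662, 804 and 726 normalised reads in EV, 1367, 1540 and 1314 with KD 86, and 705, 638 and 528 with KD 87. All 3 KD 86 libraries were far above the other 6, among which EV and KD 87 overlapped. The rise with KD 86 was 0.95 on the log2 scale (SE 0.18, limma adjusted p = 0.00285). KD 87 differed from EV by -0.23 (adjusted p = 0.429) and was lower by 1.18 than KD 86 (SE 0.18, adjusted p = 0.00123), and both IFNAR1 calls held without each library. IFNAR2 stood at 176, 190.0 and 193 normalised reads in EV, 428, 438 and 442 with KD 86, and 309, 266 and 248 with KD 87. Its 3 groups did not overlap, with EV lowest, KD 87 between and KD 86 highest, and the KD 86 libraries lay within a narrow band. The rise with KD 86 was 1.23 (SE 0.18, adjusted p = 0.000723), a call that held without each library. With KD 87 the difference was 0.55 (adjusted p = 0.0721, 0.0245 with the block). IFNAR2 was lower by 0.67 with KD 87 than with KD 86 (adjusted p = 0.0185), a call lost without KD 86 replicate 2 or 3 or KD 87 replicate 2 or 3 (adjusted p from 0.0548 to 0.0709).

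IFNGR1 and IFNGR2 encode the chains of the interferon gamma receptor. IFNGR2 (ENSG00000159128.14), the signalling chain, stood at 540.0, 612 and 765 normalised reads in EV, 1335, 1804 and 2125 with KD 86, and 1266, 967 and 1086 with KD 87. The groups did not overlap, and the order was EV, KD 87, KD 86. IFNGR2 rose by 1.45 with KD 86 (SE 0.22, limma adjusted p = 0.00101), a call that held without each library. With KD 87 it rose by 0.80 (SE 0.22, adjusted p = 0.0461), a call lost without EV replicate 1 or 2, KD 86 replicate 2 or 3 or any KD 87 replicate (adjusted p from 0.0519 to 0.188), and also without a variance trend (adjusted p = 0.0652) and with only the 2 groups compared (adjusted p = 0.0667). The difference between constructs was -0.65 (adjusted p = 0.0546, 0.0132 with the block, and 0.0466, 0.0494 and 0.031 without EV replicate 2, EV replicate 3 or KD 86 replicate 1). IFNGR1 (ENSG00000027697.13), the ligand-binding chain, stood at 259, 139.8 and 305 normalised reads in EV, 418, 363 and 447 with KD 86, and 264, 187 and 247 with KD 87. KD 86 libraries were the 3 highest, and the EV and KD 87 ranges overlapped. It rose by 0.87 with KD 86 (SE 0.29, adjusted p = 0.0373), a call lost without any 1 of EV replicate 1 or 2 or the KD 86 replicates (adjusted p from 0.058 to 0.0985) and with only the 2 groups compared (adjusted p = 0.0594). The KD 87 level differed from EV by 0.047 (adjusted p = 0.935) and from KD 86 by -0.82 (adjusted p = 0.0587, 0.00493 with the block, 0.0123 and 0.0453 without EV replicate 2 or 3).

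JAK1, the kinase held by receptors of both interferon classes, and JAK2, which serves the gamma receptor, were not called in any comparison. JAK1 (ENSG00000162434.11) stood at 1168, 1709 and 757 normalised reads in EV, 1735, 1997 and 1513 with KD 86, and 1548, 1325 and 965 with KD 87. The groups overlapped, and EV replicate 3 was the lowest of the 9 libraries. Its KD 86 difference was 0.60 (limma adjusted p = 0.133, 0.015 with the block and 0.0185 without EV replicate 2), and its KD 87 difference 0.13 (adjusted p = 0.806). JAK2 (ENSG00000096968.13) stood at 146, 271 and 171 normalised reads in EV, 218, 284 and 220.4 with KD 86, and 368, 341 and 233 with KD 87. The EV range overlapped both others, and KD 87 replicates 1 and 2 were the highest. Its differences were 0.33 with KD 86 (adjusted p = 0.366) and 0.70 with KD 87 (adjusted p = 0.132, 0.0261 with the block and 0.0302 without EV replicate 2). Between the constructs JAK2 passed only with the length trend removed, with or without the block.

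IFNAR2, IFNAR1 and IFNGR2 lie close together on chromosome 21 in RefSeq, with IL10RB, an interleukin receptor chain also used by interferon lambda, between IFNAR2 and IFNAR1. All 3 members rose with KD 86. IL10RB (ENSG00000243646.9), looked up after the members' values were seen, stood at 379, 174 and 383 normalised reads in EV, 444, 438 and 479.6 with KD 86, and 166, 97.6 and 193 with KD 87. KD 86 libraries were the 3 highest, and the KD 87 range overlapped EV through EV replicate 2. Its KD 86 difference from EV was 0.63 (limma adjusted p = 0.171, 0.0293 with the block) and its KD 87 difference -0.997 (adjusted p = 0.0867, 0.0068 with the block, 0.0109 without EV replicate 2). IL10RB was lower by 1.62 with KD 87 than with KD 86 (SE 0.34, adjusted p = 0.00594). Against EV, the 4 neighbours carried different values with KD 87, 0.55 for IFNAR2, -0.997 for IL10RB, -0.23 for IFNAR1 and 0.80 for IFNGR2. Of these, IFNGR2 alone passed the test without the block.

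Of the 5 transcription factors, IRF1 rose with KD 86 and STAT2 was the one that differed between the constructs. Each is 20% of the group, beside 35.6% and 25.6% of all genes. STAT2 (ENSG00000170581.13), the partner of IRF9 in the factor that drives type I interferon responses, stood at 363, 614 and 648 normalised reads in EV, 180.2, 395 and 424 with KD 86, and 822, 889.8 and 774 with KD 87. KD 87 libraries were the 3 highest, and KD 86 replicate 1 was by far the lowest. It differed from EV by -0.75 with KD 86 (limma adjusted p = 0.101, 0.0133 with the block) and by 0.66 with KD 87 (adjusted p = 0.231, 0.0421 with the block). STAT2 was 1.41 higher with KD 87 than with KD 86 (SE 0.33, adjusted p = 0.0111), a 2.65-fold difference called without each library in turn. IRF1 (ENSG00000125347.13), an interferon-induced activator of many of the effectors, stood at 220.0, 296 and 222 normalised reads in EV, 346, 472 and 543 with KD 86, and 335, 444 and 449 with KD 87. Every knockdown library exceeded every EV library. IRF1 rose with KD 86 by 0.87 (SE 0.23, adjusted p = 0.0153), a call lost without EV replicate 1 (adjusted p = 0.0546), KD 86 replicate 2 (adjusted p = 0.0595) or KD 86 replicate 3 (adjusted p = 0.0588). With KD 87 the difference was 0.73 (adjusted p = 0.0702, 0.00891 with the block and 0.0338 without EV replicate 2).

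IRF7 (ENSG00000185507.19), which amplifies interferon production, stood at 70, 94.1 and 73.3 normalised reads in EV, 73.6, 137 and 151 with KD 86, and 164, 162 and 135 with KD 87. KD 87 libraries were all above EV, while KD 86 replicate 1 sat within the EV range. Differences were 0.55 with KD 86 (limma adjusted p = 0.167, 0.0276 without KD 86 replicate 1) and 0.96 with KD 87 (adjusted p = 0.0637, 0.0153 with the block, 0.0414 without EV replicate 2 and 0.0272 without KD 86 replicate 1). IRF9 (ENSG00000213928.8) had few reads, at 4.45, 2.74 and 20.5 normalised reads in EV, 11.6, 29 and 22.3 with KD 86, and 7.36, 18 and 21.4 with KD 87. EV replicate 3 lay among the knockdown values and the other EV libraries below them. Its difference of 1.01 with KD 87 (SE 0.68, limma adjusted p = 0.366) did not pass. Identifiers above 0 in the EV and KD 86 tables had at least 12 reads in 3 or more of those 6 libraries. IRF9 reached that through the KD 86 libraries, so no test of its KD 86 difference is given. It is still counted in the totals with the block. IRF3 (ENSG00000126456.15), the constitutive factor activated below the sensors, stood at 1225, 952 and 1171 normalised reads in EV, 1096, 1259 and 1362 with KD 86, and 869, 989.9 and 1212 with KD 87. The 3 groups overlapped throughout, and neither difference passed (0.15, 95% interval -0.27 to 0.58, and -0.13, 95% interval -0.56 to 0.30). With the block and the length trend removed together, IRF3 passed with KD 86 and between the constructs.

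Among the feedback inhibitors, USP18 fell with KD 86, which is 50% of the 2 tested, beside 35.6% of all genes. USP18 (ENSG00000184979.9) removes ISG15 from proteins and blocks IFNAR2 signalling. It stood at 111, 89.5 and 72.2 normalised reads in EV, 59.1, 47.4 and 53.9 with KD 86, and 85.1, 78.8 and 67.2 with KD 87. KD 86 libraries were the 3 lowest and the KD 87 range overlapped that of EV. USP18 fell by 0.74 on the log2 scale (SE 0.25, limma adjusted p = 0.0424), a call lost without any 1 library other than EV replicate 3 (adjusted p from 0.0519 to 0.146), with the length trend removed (adjusted p = 0.061) and with only the 2 groups compared (adjusted p = 0.0826). With KD 87 the difference was -0.22 (adjusted p = 0.606). SOCS3 (ENSG00000184557.4), a suppressor of cytokine receptor signalling, stood at 239, 354 and 241 normalised reads in EV, 251, 252 and 280.2 with KD 86, and 91.4, 179.8 and 198 with KD 87. KD 87 libraries were the 3 lowest and the other groups overlapped. Differences were -0.067 with KD 86 (adjusted p = 0.88), -0.88 with KD 87 (adjusted p = 0.0862, 0.0162 with the block) and -0.81 between the constructs (adjusted p = 0.0692, 0.0152 with the block, 0.0498 and 0.0495 without EV replicate 2 or KD 87 replicate 3).

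SOCS1, the suppressor of JAK kinases, and XAF1, a pro-apoptotic interferon-induced gene, were listed at 0 in the separately filtered KD 87 tables, and their EV and KD 86 values are given as a description. SOCS1 (ENSG00000185338.4) stood at 3.33, 11.9 and 8.62 normalised reads in EV and 22.3, 36.0 and 27.0 with KD 86. The KD 86 libraries were all higher, and the total was 24 reads in EV and 87 with KD 86. XAF1 (ENSG00000132530.16) stood at 2.22, 5.48 and 4.31 in EV and 24.2, 28.1 and 51.6 with KD 86, without overlap. Its total was 12 reads in EV and 101 with KD 86. Every identifier above 0 in the EV and KD 86 tables had at least 12 reads in 3 or more of the 6 libraries, and both genes reached that through the KD 86 libraries, so no test of their difference is given.

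The induced effectors moved in both directions. Of 21 tested, IFIT3, OAS1, MX1 and GBP1 rose and IFIT5 and IFI44 fell with KD 86, while IFI35 rose and GBP2 fell with KD 87. These are 28.57% and 9.524% of the group, beside 35.6% and 10.3% of all genes. The count of 6 with KD 86 was 1 (OAS1) without KD 86 replicate 2, 2 without EV replicate 1 or KD 86 replicate 3, 3 without EV replicate 3 or KD 86 replicate 1, and 9 with the replicate block. Of all genes, 22.1% to 29.8% passed with KD 86 without these libraries and 55.3% with the block. The KD 87 count of 2 was 6 with the block, 3 higher and 3 lower, beside 31.0% of all genes. The median change of the group was 0.042 with KD 86 and -0.060 with KD 87. OAS1 (ENSG00000089127.12), which makes oligoadenylates that activate RNase L, stood at 161, 167 and 129 normalised reads in EV, 351, 243 and 247 with KD 86, and 137, 132 and 147 with KD 87. The 3 KD 86 libraries stood above the other groups, which overlapped. It rose with KD 86 by 0.86 (SE 0.22, limma adjusted p = 0.0122) and was lower by 0.99 with KD 87 than with KD 86 (SE 0.22, adjusted p = 0.00802), and both calls held without each library. IFIT3 (ENSG00000119917.13), of a family that binds foreign RNA ends, stood at 216, 267 and 211 normalised reads in EV, 357, 363 and 362 with KD 86, and 340.5, 341 and 277 with KD 87. All 6 knockdown libraries were above EV, and the KD 86 values were nearly equal. Its rise with KD 86 was 0.65 (SE 0.19, adjusted p = 0.0212), lost without EV replicate 1 or 3 or KD 86 replicate 2 or 3 (adjusted p from 0.0563 to 0.0723). With KD 87 it differed by 0.47 (adjusted p = 0.137, 0.0464 with the block).

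MX1 (ENSG00000157601.13), a dynamin-like GTPase that traps viral nucleocapsids, stood at 113, 111 and 79.8 normalised reads in EV, 151, 192 and 170.0 with KD 86, and 145, 139.6 and 117 with KD 87. The knockdown libraries were all above EV, those of KD 86 most so. MX1 rose by 0.76 with KD 86 (SE 0.23, limma adjusted p = 0.0254), lost without EV replicate 3, KD 86 replicate 2 or KD 86 replicate 3 (adjusted p from 0.0613 to 0.106) and with only the 2 groups compared (adjusted p = 0.0537). The KD 87 difference was 0.41 (adjusted p = 0.277). GBP1, a guanylate-binding protein that attacks intracellular pathogens, rose with KD 86 by 0.98 (SE 0.33, adjusted p = 0.0394). That call was lost without EV replicate 1 or 2, any KD 86 replicate or KD 87 replicate 2 (adjusted p from 0.0557 to 0.139), with the length trend removed (adjusted p = 0.0549) and with only the 2 groups compared (adjusted p = 0.0526).

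GBP2, the neighbour of GBP1 on chromosome 1 and of the same family, was called with KD 87 and not with KD 86. GBP2 (ENSG00000162645.12) stood at 101, 108 and 138 normalised reads in EV, 83.3, 115 and 171 with KD 86, and 31.5, 21.4 and 41.7 with KD 87. All 3 KD 87 libraries were well below the other 6, which overlapped. GBP2 fell by 1.88 with KD 87 (SE 0.33, limma adjusted p = 0.00817), or 3.67-fold, and was lower by 1.92 than with KD 86 (SE 0.33, adjusted p = 0.00246). Its KD 86 difference from EV was 0.042 (adjusted p = 0.934). Both GBP2 calls held without each library in turn. IFI35 (ENSG00000068079.7), an interferon-induced leucine zipper protein, stood at 448, 355 and 560.5 normalised reads in EV, 485, 548 and 510.0 with KD 86, and 1135, 872 and 1004 with KD 87. KD 87 libraries were the 3 highest by a wide margin, and EV and KD 86 overlapped. IFI35 rose with KD 87 by 1.16 (SE 0.21, adjusted p = 0.00809) and was 0.96 higher than with KD 86 (SE 0.21, adjusted p = 0.007), and both calls held without each library. With KD 86 it differed by 0.20 (adjusted p = 0.468).

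BST2 and ISG20 differed between the constructs without a call against EV. BST2 (ENSG00000130303.12) encodes tetherin, which holds budding virions at the cell surface. It stood at 26.7, 14.6 and 39.9 normalised reads in EV, 54.2, 39.5 and 70.3 with KD 86, and 12.6, 13.7 and 17.3 with KD 87. KD 87 values were low and close together, EV values were spread, and KD 86 replicate 2 lay within the EV range. BST2 was lower by 1.82 with KD 87 than with KD 86 (SE 0.40, limma adjusted p = 0.00825), or 3.52-fold, which held without each library. Against EV the differences were 1.06 with KD 86 (adjusted p = 0.0618, 0.0117 with the block and 0.0314 without EV replicate 3) and -0.76 with KD 87 (adjusted p = 0.254). ISG20 (ENSG00000172183.14), an exonuclease that degrades RNA, stood at 629, 364 and 819 normalised reads in EV, 278, 386 and 510.0 with KD 86, and 1060, 795 and 1005 with KD 87. All KD 87 libraries lay above all KD 86 libraries, and EV overlapped both. It was 1.31 higher with KD 87 than with KD 86 (SE 0.31, adjusted p = 0.0115), a call that held without each library. Against EV it differed by -0.59 with KD 86 (adjusted p = 0.162, 0.0453 with the block, 0.0189 without EV replicate 2) and by 0.72 with KD 87 (adjusted p = 0.163, 0.0331 with the block).

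IFI44 and IFIT5 were the effectors that fell with KD 86. IFI44 (ENSG00000137965.10), an interferon-induced protein of unsettled function, stood at 601, 457 and 814 normalised reads in EV, 269, 251 and 394 with KD 86, and 301, 384 and 546 with KD 87. All KD 86 libraries lay below all EV libraries, and the KD 87 range overlapped both. IFI44 fell by 1.02 (SE 0.29, limma adjusted p = 0.0205), a call lost without EV replicate 1 or 3 or KD 86 replicate 1 or 2 (adjusted p from 0.0575 to 0.0805). With KD 87 the difference was -0.61 (adjusted p = 0.207, 0.02 with the block). IFIT5, which binds RNA with a phosphate end, fell by 0.51 with KD 86 (SE 0.17, adjusted p = 0.0379). That call was lost without EV replicate 1 or 3, any KD 86 replicate or KD 87 replicate 1 or 2 (adjusted p from 0.0501 to 0.154), with no variance trend (adjusted p = 0.051) and with only the 2 groups compared (adjusted p = 0.0792). Its neighbours on chromosome 10 carried other values with KD 86: 0.65 for IFIT3, 0.15 for IFIT2 (adjusted p = 0.622) and -0.55 for IFIT1 (adjusted p = 0.279). The 4 IFIT genes thus held 1 rise, 1 fall and 2 without a call.

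The remaining effectors had no call in any comparison: IFIT1, IFIT2, OAS2, OAS3, OASL, MX2, SAMHD1, ADAR, IFI6, IFI44L and PLSCR1. Their differences ran from -0.55 (IFIT1) to 0.69 (OAS2) with KD 86 and from -1.49 (IFI44L) to 0.58 (IFIT2) with KD 87. ADAR, which edits double-stranded RNA and keeps it from MDA5, differed by 0.45 (limma adjusted p = 0.247, 0.0226 without EV replicate 2) and 0.075 (adjusted p = 0.894). OAS2 differed by 0.69 with KD 86 (adjusted p = 0.0825, 0.00839 with the block and 0.0346 without EV replicate 2). IFI44L with KD 87 (adjusted p = 0.116) passed with the block (adjusted p = 0.0169) and without KD 87 replicate 3 (adjusted p = 0.0293). Between the constructs OAS2 (-0.78), IFI44L (-1.21), OASL (-0.98) and, among the called effectors, IFIT5 (0.38) passed with the block (adjusted p = 0.00521, 0.0287, 0.0407 and 0.0476), and OAS2 also without EV replicate 2 (adjusted p = 0.0453) and IFI44L without KD 87 replicate 3 (adjusted p = 0.0313). RSAD2, which encodes viperin, and IFI27, both usually strongly induced by type I interferon, were listed at 0 in all 9 libraries.

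**Figure D3:**
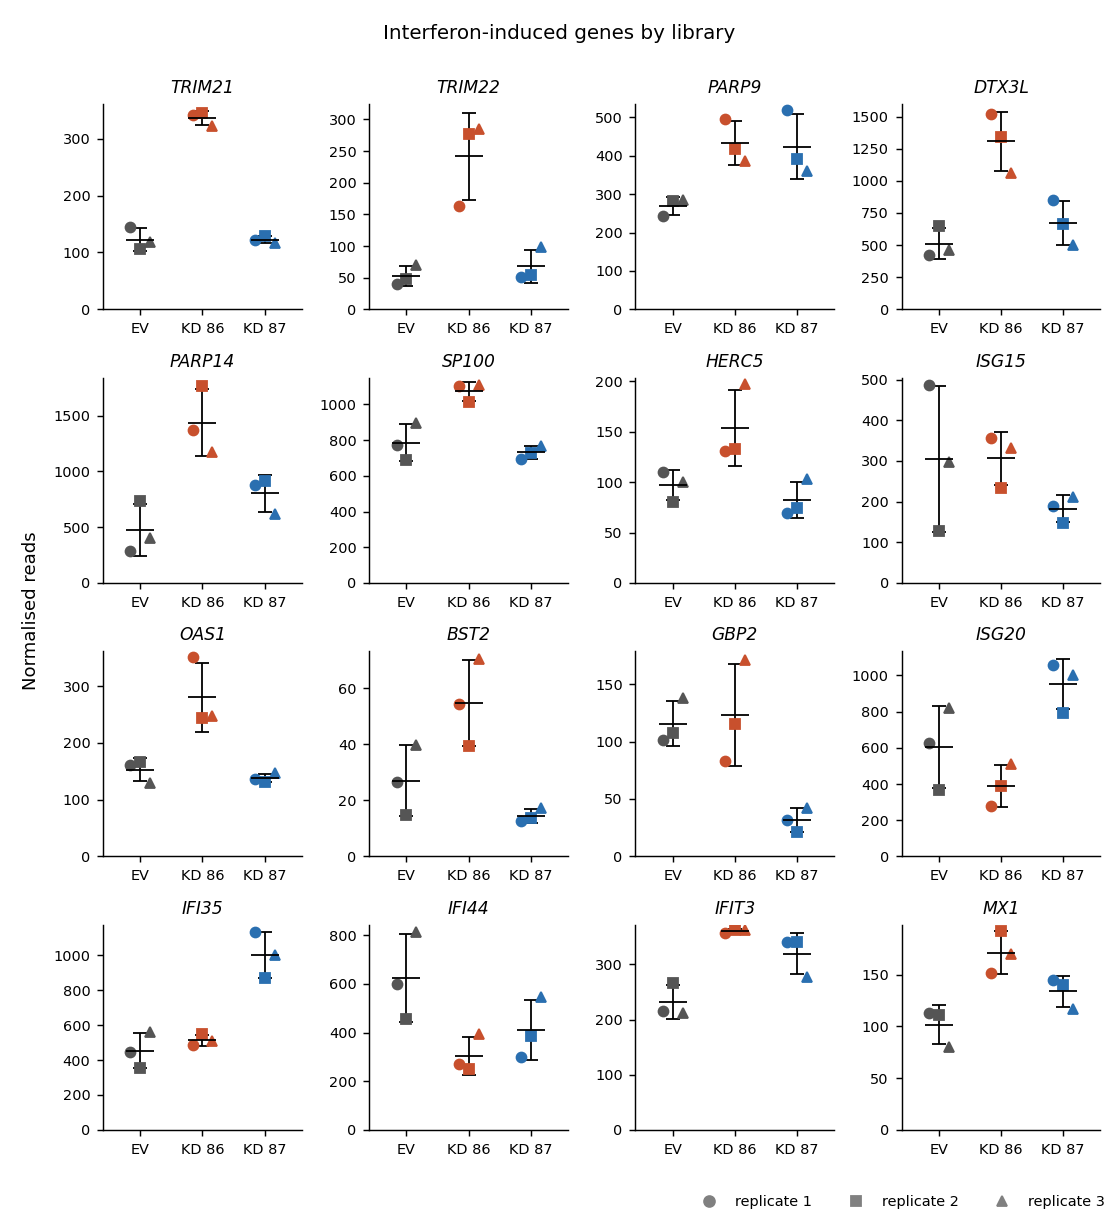
Normalised reads (vertical axis, from 0) in each library for 16 interferon-induced members. Points are libraries, shaped by replicate number, and bars are the mean and SD of 3 libraries. TRIM21, TRIM22, DTX3L and PARP14 are highest with KD 86, GBP2 is low only with KD 87, and IFI35 is high only with KD 87.

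Of 12 tested ISG15, TRIM, PARP and nuclear body genes, TRIM21, TRIM22, PARP9, PARP14 and DTX3L rose with KD 86, none fell, and none was called with KD 87 (limma; 2 with the block, PARP9 and PARP14, and 2 without EV replicate 2, PARP14 and ISG15). Of all genes 35.6% passed with KD 86 and 10.3% with KD 87 (31.0% with the block, 18.5% without EV replicate 2). Between the constructs TRIM21, TRIM22, DTX3L, HERC5 and SP100 were lower with KD 87, a count of 5 that was 2 without KD 86 replicate 2 and 3 without any other knockdown library, when 16.0% and 17.8% to 21.1% of all genes passed in place of 25.6%. TRIM22 (ENSG00000132274.15), a ubiquitin ligase that restricts several viruses, stood at 40, 47.5 and 70.1 normalised reads in EV, 163, 278 and 285 with KD 86, and 51.5, 54 and 97.7 with KD 87. All KD 86 libraries were well above all others, which overlapped. It rose by 2.18 with KD 86 (SE 0.35, adjusted p = 0.00117), or 4.52-fold, the largest rise among the tested members, and was lower by 1.84 with KD 87 than with KD 86 (SE 0.35, adjusted p = 0.00354). TRIM21 (ENSG00000132109.9), a ubiquitin ligase that binds antibody-coated virus in the cytosol, stood at 144, 106 and 118 normalised reads in EV, 342, 344 and 322 with KD 86, and 122, 128 and 116 with KD 87. The KD 86 libraries formed a separate band, and the KD 87 libraries lay within the EV range. It rose by 1.46 with KD 86 (SE 0.20, adjusted p = 0.000524), differed from EV by 0.0049 with KD 87 (95% interval -0.43 to 0.44), and was lower by 1.45 with KD 87 than with KD 86 (SE 0.20, adjusted p = 0.000704). All calls of TRIM21 and TRIM22 held without each library.

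PARP9, DTX3L and PARP14 lie together on chromosome 3 in RefSeq, with PARP15, listed at 0, among them, and all 3 rose with KD 86. DTX3L (ENSG00000163840.9), a ubiquitin ligase that forms a complex with PARP9, stood at 424, 648 and 460.3 normalised reads in EV, 1519, 1345 and 1063 with KD 86, and 849, 663 and 503 with KD 87. KD 86 libraries were the 3 highest, and EV and KD 87 overlapped. Its rise with KD 86 was 1.36 (SE 0.25, limma adjusted p = 0.00234). It was lower by 0.98 with KD 87 than with KD 86 (SE 0.25, adjusted p = 0.0158), which was lost without KD 86 replicate 1 (adjusted p = 0.0612), KD 86 replicate 2 (adjusted p = 0.0563) or KD 87 replicate 3 (adjusted p = 0.0613). PARP14 (ENSG00000173193.13), an ADP-ribosyltransferase, stood at 286, 735 and 405 normalised reads in EV, 1371, 1765 and 1175 with KD 86, and 882, 912 and 616 with KD 87. EV replicate 2 overlapped the KD 87 range and no EV library reached the KD 86 range. PARP14 rose by 1.69 with KD 86 (SE 0.32, adjusted p = 0.00305), and this call held without each library. With KD 87 it differed by 0.85 from EV (adjusted p = 0.122, 0.0145 with the block, 0.0127 without EV replicate 2) and by -0.84 from KD 86 (adjusted p = 0.082, 0.00917 with the block, 0.0194 without EV replicate 2). PARP9 (ENSG00000138496.16) stood at 242, 282 and 285 normalised reads in EV, 496, 418 and 386 with KD 86, and 520.2, 391 and 359 with KD 87. All 6 knockdown libraries were above EV, with replicate 1 the highest in both constructs. PARP9 rose by 0.68 with KD 86 (SE 0.20, adjusted p = 0.0254), lost without EV replicate 1, KD 86 replicate 1 or KD 86 replicate 2 (adjusted p from 0.0701 to 0.0804) and with the length trend removed (adjusted p = 0.0576). With KD 87 the difference was 0.64 (adjusted p = 0.0732, 0.0204 with the block).

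HERC5, the ligase that attaches ISG15 to proteins, and SP100, a component of PML nuclear bodies, differed between the constructs. HERC5 (ENSG00000138646.8) stood at 110.0, 80.4 and 100.2 normalised reads in EV, 131, 133 and 197 with KD 86, and 69.4, 74.5 and 103 with KD 87. The KD 86 group lay above both others, which overlapped. It was lower by 0.89 with KD 87 than with KD 86 (SE 0.26, limma adjusted p = 0.0318), lost without KD 86 replicate 2 or 3 or KD 87 replicate 1 or 2 (adjusted p from 0.0632 to 0.114), and differed from EV by 0.64 with KD 86 (adjusted p = 0.0807, 0.0233 with the block). SP100 (ENSG00000067066.16) stood at 772, 689.6 and 898 normalised reads in EV, 1101, 1012 and 1109 with KD 86, and 694, 730.5 and 769.7 with KD 87. KD 86 libraries lay above all others within a narrow band. SP100 was lower by 0.55 with KD 87 than with KD 86 (SE 0.17, limma adjusted p = 0.0339), a call lost without any 1 of the 6 knockdown libraries (adjusted p from 0.0684 to 0.103). It differed from EV by 0.46 with KD 86 (adjusted p = 0.0557, 0.0156 with the block, 0.043 without EV replicate 3). ISG15 (ENSG00000187608.8) itself, the ubiquitin-like modifier, stood at 487, 128 and 299 normalised reads in EV, 356, 233 and 333 with KD 86, and 190.2, 146 and 212 with KD 87. EV spanned the whole range of both constructs, from the lowest to the highest of the 9 values. Its differences were 0.19 with KD 86 (adjusted p = 0.749), -0.55 with KD 87 (adjusted p = 0.417, 0.0303 without EV replicate 2) and -0.74 between the constructs (adjusted p = 0.218, 0.0356 with the block). UBE2L6, HERC6, TRIM25 and SP110 had no call, with differences from -0.26 (HERC6) to 0.14 (SP110) with KD 86 and from -0.0074 (SP110) to 0.17 (HERC6) with KD 87.

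**Figure D4:**
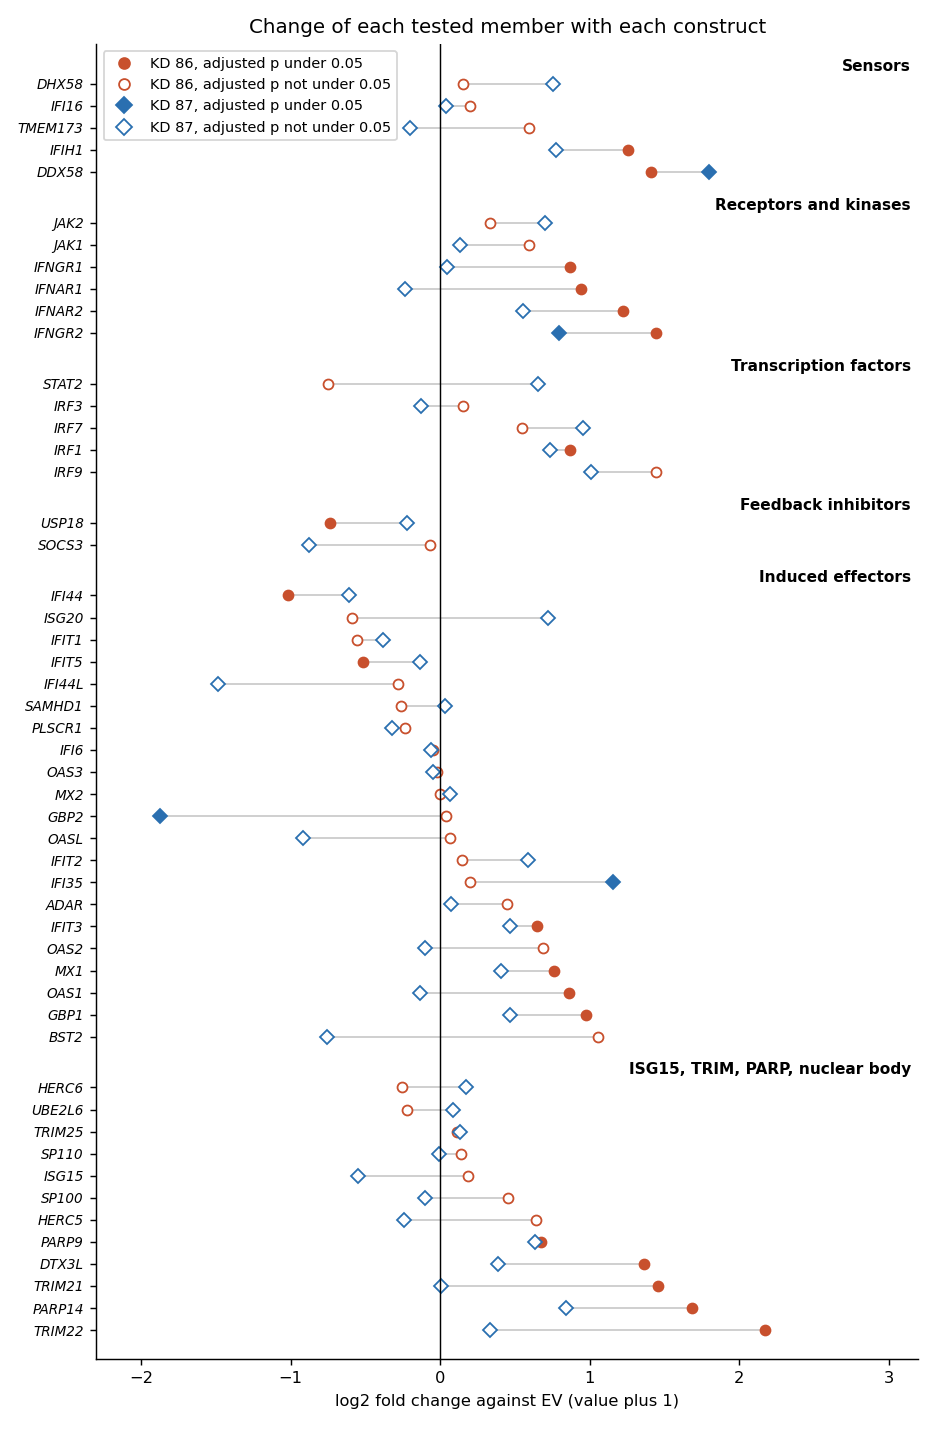
Log2 fold change against EV (horizontal axis, log2 of the value plus 1) of each of the 51 tested members with KD 86 (circles) and KD 87 (diamonds), by role; filled symbols passed limma's adjusted p under 0.05, and lines join the values of a gene. Both constructs share the EV libraries. DDX58 and IFNGR2 are filled for both constructs, and TRIM22 with KD 86 (2.18) and GBP2 with KD 87 (-1.88) mark the extremes.

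The wider pathway was read from further lists. Of 21 interferon ligand genes, IFNE alone was above 0, at 4.45, 11 and 29.1 normalised reads in EV, 7.75, 18.4 and 14.1 with KD 86, and 14.7, 15.4 and 18.3 with KD 87, and it was not called. All type I, gamma and lambda interferon genes other than IFNE in that list were listed at 0. Among 25 tested adaptors and kinases below the sensors, 10 rose and 2 fell with KD 86 (limma), 1 rose with KD 87, and 2 were higher and 7 lower with KD 87 than with KD 86. These are 48%, 4% and 36% of the list, beside 35.6%, 10.3% and 25.6% of all genes. The 48% and the 36% still count IRF5, for which no test is given below. With the block the counts were 15, 4 and 16, beside 55.3%, 31.0% and 44.1% of all genes, and the KD 87 count was 2 without EV replicate 2 (18.5% of all genes). MYD88, the adaptor of most Toll-like receptors, stood at 479, 618 and 376 normalised reads in EV, 2140, 2284 and 1720 with KD 86, and 789, 608 and 453 with KD 87. The KD 86 libraries were far above the others, which overlapped. MYD88 rose by 2.08 with KD 86 (adjusted p = 0.000305), and was lower by 1.76 with KD 87 than with KD 86 (adjusted p = 0.000933). TLR3, the endosomal sensor of double-stranded RNA, stood at 64.5, 103 and 105 normalised reads in EV, 297, 295 and 249.7 with KD 86, and 56.8, 69.4 and 76.4 with KD 87. Here too the KD 86 libraries stood apart, and EV and KD 87 overlapped. TLR3 rose by 1.65 with KD 86 (adjusted p = 0.00101) and was lower by 2.05 with KD 87 than with KD 86 (adjusted p = 0.000467). IRF5 was counted among the 10 that rose and the 7 that were lower with KD 87 than with KD 86. It stood at 11.1, 17.4 and 16.2 normalised reads in EV, 52.3, 74.7 and 90.3 with KD 86, and 9.46, 13.7 and 7.13 with KD 87. Its EV level was near the floor of 12 reads in 3 of the 6 EV and KD 86 libraries. The KD 86 libraries helped IRF5 to meet that floor, so its values are a description and no test is given. TBKBP1, which binds the kinase TBK1, rose with both constructs, by 2.10 (adjusted p = 8.12e-05) and 1.24 (adjusted p = 0.00509). All calls of MYD88, TLR3 and TBKBP1 held without each library in turn.

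Among 16 tested nucleases and other genes that clear stray nucleic acid, 3 rose and 2 fell with KD 86 and 1 rose and 1 fell with KD 87 (limma), 31.25% and 12.5% of the list beside 35.6% and 10.3% of all genes. The KD 87 count of 2 was 0 without EV replicate 1, KD 87 replicate 1 or KD 87 replicate 2, 1 without EV replicate 3, 4 without EV replicate 2 and 8 with the block. Of all genes, 2.67% to 18.5% passed with KD 87 when single libraries were left out and 31.0% with the block. DNASE2, the lysosomal nuclease, stood at 698, 529 and 661 normalised reads in EV, 1687, 1759 and 1589 with KD 86, and 519, 502 and 518 with KD 87. All KD 86 libraries were above EV and all KD 87 libraries below it. DNASE2 rose by 1.42 with KD 86 (adjusted p = 0.000266), and LSM11, a part of the histone RNA processing complex, rose by 1.38 (adjusted p = 0.00225). SLFN11 fell by 1.67 with KD 86 (adjusted p = 0.000646) and DNASE1 fell by 1.61 (adjusted p = 0.0267, lost without EV replicate 2 or KD 86 replicate 1, at 0.0611 and 0.0565). TREX1 was listed at 0 in all libraries. Of 37 further interferon-induced genes tested, 7 rose and 5 fell with KD 86 and 2 rose with KD 87. At 32.43% and 5.405% of the list, both shares were below those of all genes. The count of 12 was 7 without KD 86 replicate 2 (22.1% of all genes) and 20 with the block (55.3%). The count of 2 was 4 without EV replicate 2 (18.5% of all genes) and 12 with the block (31.0%). It was 1 without EV replicate 1 or 3 or KD 87 replicate 1 or 2, when 2.67% to 7.67% of all genes passed. TRIM38 rose with KD 86 by 1.29 (adjusted p = 0.000664), TDRD7 by 0.93 (adjusted p = 0.0032) and HELZ2 by 2.01 (adjusted p = 0.00152), while PNPT1, a mitochondrial ribonuclease that limits release of double-stranded RNA, fell by 1.24 (adjusted p = 0.000797). HELZ2 also rose with KD 87 by 1.36 (adjusted p = 0.0285, lost without EV replicate 1 or 3 or KD 87 replicate 1 or 2, at 0.0726 to 0.133). Of 21 further brakes on interferon signalling, 5 rose and 3 fell with KD 86 and 2 rose with KD 87. These are 38.1% and 9.524% of the list, near the 35.6% and 10.3% of all genes. The KD 86 count of 8 was 4 without EV replicate 1 or KD 86 replicate 3, 5 without KD 86 replicate 2 and 15 with the block, when 24.9%, 29.8%, 22.1% and 55.3% of all genes passed. The KD 87 count of 2 was 0 without EV replicate 1 or 3 or KD 87 replicate 1 or 2, when 2.67% to 7.67% of all genes passed. It was 5 with the block, beside 31.0% of all genes. IRF2BP2, a corepressor of IRF2, rose with KD 86 by 1.45 (adjusted p = 0.000358), CYLD, a deubiquitinase, by 1.54 (adjusted p = 0.000783) and PIAS2 by 0.81 (adjusted p = 0.0107, 0.093 with the length trend removed), while IRF2BP1 fell by 0.85 (adjusted p = 0.0129).

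Markers of other cell types and of the melanoma lineage were read in the same libraries. Of 12 leukocyte markers, 2 were above 0, LYZ in all groups and CSF1R in the KD 87 tables alone, and PTPRC, CD3E, CD14, CD79A and the others were listed at 0. The summed level of the list was 145.2 to 261.9 in EV, 238.1 to 336.1 with KD 86 and 382.8 to 838.6 with KD 87. LYZ, lysozyme, rose with KD 87 by 1.26 (limma adjusted p = 0.0377), a call lost without EV replicate 1 or 2, KD 86 replicate 2 or 3 or KD 87 replicate 1 or 2 (adjusted p from 0.0537 to 0.141). Of the endothelial and epithelial markers KRT14 alone was above 0, at 358, 319.7 and 219 normalised reads in EV, 116, 83.5 and 50.4 with KD 86, and 553, 496 and 308 with KD 87, and it fell by 1.88 with KD 86 (adjusted p = 0.00231). Of 8 melanoma markers tested, SOX10, S100A1, MCAM and CSPG4 rose with KD 86 and none was called lower, and SOX10 and S100A1 rose with KD 87, 50% and 25% of the list beside 35.6% and 10.3% of all genes. S100B, VIM, MITF and PMEL were not called with either construct. The changes of the list with KD 86 reached down to -0.78, without a call. S100A1 rose by 3.11 (adjusted p = 6.77e-05) and 1.99 (adjusted p = 0.00272), SOX10 by 2.24 (adjusted p = 0.00112) and 1.53 (adjusted p = 0.0223, lost without EV replicate 1 or 3 or KD 87 replicate 1 or 2, at 0.0623 to 0.102), CSPG4 by 2.51 (adjusted p = 0.00137) and MCAM by 1.41 (adjusted p = 0.000835) with KD 86. The summed melanoma list was 42940 to 65740 in EV, 97880 to 121500 with KD 86 and 68840 to 82730 with KD 87. The part of these marker lists in the members' values was not tested.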

How the data were processed

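Each of the 9 libraries came as 1 table of 60420 gene identifiers. Per the submitters' processing notes, the tools named were STAR, Subread, featureCounts and edgeR, with hg19 as the genome build. The deposited unit is a score: the authors' normalised read count, in which each library's reads had been multiplied by a constant and rounded. The EV and KD 86 tables had been filtered together and the KD 87 tables separately, so 400 identifiers were above 0 in the former alone and 453 in the latter alone. That constant was recovered from the low values, the reads (11.311 to 15.564 M per library) were rescaled by trimmed means of M-values to a common library of 13.445 M, and log2(value + 1) was fitted with limma 3.58.1 in R 4.3.3. The fit held all 3 groups, a variance trend and 6 residual degrees of freedom. P-values were adjusted by Benjamini and Hochberg over 13825 genes, with a threshold of 0.05. Each of these genes was above 0 in at least 1 EV or KD 86 library and in at least 1 KD 87 library. Fold changes are on the log2(value + 1) scale and understate those of low genes. Identifiers at 0 in all libraries numbered 45742.

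Libraries with the same replicate number deviated together (r from 0.2152 to 0.7216 over 9 pairs, and -0.6439 to 0.14 over the 18 other pairs, across 13819 genes), so a fit with the number as a block is given where it changed a call of a member other than IRF9. Whether the number marks a shared culture or day is not stated. Alternatives were the deposited values as they stand, other size factors, pseudocounts and filters, no variance trend, precision weights, only the 2 groups compared, the block, a length trend removed, and each library left out. Members and lists were chosen with earlier results of these data known. Every member is named by its outcome; values in each library are given for the sensors and for up to 8 members of each other role with the smallest adjusted p over the 3 comparisons, and up to 4 genes of each further list were taken the same way. The steps were tested on simulated data. Promoters and gene order came from RefSeq (GRCh38.p14) and were matched by gene ID, a build other than that of the tables. Whether counting used strand is not given in the sources used here, so reads of overlapping or antisense genes cannot be told apart.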

Additional observations from a re-analysis of the deposited data

Results flagged for a closer look

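These 14 results are set out again because the difference between the constructs, KD 87 minus KD 86, itself passed the test (limma adjusted p under 0.05), so that the 2 constructs did not give the same change from EV. Which SPANX genes each construct targets is not stated in the labels. The differences are on the log2 scale. Among sensors and receptors they were -0.80 for TMEM173, -1.18 for IFNAR1 and -0.67 for IFNAR2. STAT2, at 1.41, was the one transcription factor. Among the effectors the differences were 1.31 for ISG20, -0.99 for OAS1, -1.82 for BST2, -1.92 for GBP2 and 0.96 for IFI35. In the last group they were -0.89 for HERC5, -1.45 for TRIM21, -1.84 for TRIM22, -0.98 for DTX3L and -0.55 for SP100. The fits for TMEM173, IFNAR2, HERC5, DTX3L and SP100 lost the call when some single libraries were left out, as given with each gene, and the other 9 kept it. The separate filtering of the KD 87 tables cannot be told apart from the construct.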

How the results depend on the processing

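Of the 37 member calls in the fit of all 3 groups, 21 held without each library in turn, and these 21 held under every alternative run. The other 16 kept their direction and lost the threshold under at least 1 setting. No member comparison changed sign while called, and 46 of the 116 member comparisons without a call passed under at least 1 alternative. Leaving out single libraries gave 9 to 20 members past the threshold with KD 86 (main 19; 22.1% to 43.5% of all genes), 3 to 8 with KD 87 (main 4; 2.67% to 18.5%) and 9 to 19 between constructs (main 14; 16.0% to 30.3%). The replicate block gave 28, 18 and 24 (55.3%, 31.0% and 44.1% of all genes), gained 33 member calls and lost none. IRF9 with KD 86 is among these gains. The block with the length trend removed gave 32, 19 and 27 (55.3%, 34.9% and 47.9%), and removal of the length trend alone gave 8 with KD 87 (15.2%). Over the 3 comparisons, removal of the length trend alone gained 14 member calls and lost 3, and with the block it gained 41 and lost 0. Not all of these are printed beside their genes, and the cause was not tested. All other scalings, pseudocounts, filters and fits left each count within 1.5 times its main value. The fit of every gene above 0 in at least 1 library held 53 members. It added SOCS1 and XAF1, listed at 0 in the separately filtered KD 87 tables, so its counts can include calls made by the filter. Beyond the block values printed beside results and the KD 86 difference of IRF9, the block changed no other call of a member. The change of the SPANX sum ran from -3.46 to -2.49 (log2) with KD 86 and from -4.13 to -3.42 with KD 87 when single libraries were left out. IRF9, IFI44L and OASL carry the widest intervals with KD 86. BST2 had fewer reads than IFI44L and OASL and a narrower interval, and the part of depth in these intervals was not tested.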
